A study of Homo sapiens with 6 samples.

Results

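The 32 genes described here carry out or control the synthesis of cholesterol and fatty acids, and many of them are known targets of the sterol regulatory element-binding proteins (SREBPs). They were taken by name from the deposited table of 19655 genes, by their roles in these pathways, and all 32 are in it. The samples were labelled as cultures of HCT116, an established human colorectal carcinoma line, grown in DMEM with foetal bovine serum. ASO libraries (n = 3) came from cells labelled as a SNORA67 knockdown, made by transfecting an antisense oligonucleotide against this small nucleolar RNA, and NC libraries (n = 3) came from cells labelled as controls. The labels give the same transfection text for both groups, so what the NC cells received is not stated. Only 1 cell line was used. The series concerns SNORA67 in colorectal cancer, and ASO against NC is its only comparison. No label says that the replicates came from different cultures. The p-values below therefore reflect library-to-library spread alone, and part or all of that spread may be technical.

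Cells make cholesterol from acetyl-CoA. The mevalonate steps build isoprenoid units, squalene synthase joins them into squalene, and a further set of enzymes closes the rings and trims the product to cholesterol. SREBP-2, the product of SREBF2, mainly drives this pathway, and SREBP-1, the product of SREBF1, mainly drives fatty acid synthesis. Both are held in the endoplasmic reticulum with the escort protein SCAP by the INSIG proteins when sterols are plentiful, and are released to the nucleus when sterols are scarce. INSIG1 is itself an SREBP target, which makes it a feedback gene of the pathway.

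Column totals of the estimated counts were 49136502 to 54905215 in ASO and 50728524 to 53715905 in NC. SNORA67 was not analysed here. Its host gene EIF4A1 stood at 651, 564 and 636 CPM in ASO (counts per 1e6 counts, with TMM scaling between libraries), against 1489.8, 1543 and 1600.5 CPM in NC. EIF4A1 was thus 2.5-fold lower in ASO (edgeR adjusted p = 1.49e-05). Differences that go with SNORA67 and those that go with EIF4A1 cannot be told apart in this design. Of the markers of the labelled cell type, the keratin gene KRT8 was high in both groups, at 989 to 1352 CPM in ASO and 1256 to 1440.3 CPM in NC. The epithelial adhesion genes EPCAM and CDH1 were low, at 2.51 to 3.50 and 1.68 to 1.94 CPM in ASO and at 3.39 to 5.603 and 0.882 to 1.32 CPM in NC. Of the 9 epithelial markers tested, 3 (33.3%) passed edgeR, all higher in ASO, where 26.8% of all genes tested were higher. LGALS4 was at 15.05 to 20.1 CPM in ASO and at or near 0 in NC, VIL1 at 1.12 to 14.6 CPM in ASO and 0 to 0.202 CPM in NC, and KRT19 at 1.20 to 1.94 CPM in ASO and 0 to 0.151 CPM in NC. The summed level of the 10 epithelial markers, most of it from KRT8 and KRT18, was 1661 to 2189 CPM in ASO and 1916 to 2209 CPM in NC, and CDX2, KRT20 and CDH17 were under 1 CPM in each library. The 10 mesenchymal markers summed to 3232 to 3818 CPM in ASO and 2663 to 2929.5 CPM in NC and COL1A2 was at or near 0. Of the 9 mesenchymal markers tested, 3 were higher in ASO (COL5A1, COL1A1 and COL3A1, log2 fold changes 1.07, 1.22 and 1.97) and 4 lower (PDGFRB, LUM, DCN and SPARC, -1.30, -1.28, -0.93 and -0.33). These shares are 33.3% and 44.4%, against 26.8% higher and 19.1% lower of all genes tested. VIM was high in both groups, at 1171 to 1375 CPM in ASO and 1147 to 1296 CPM in NC. In both groups EPCAM and CDH1 were thus low and VIM high. These values go against the epithelial profile of a carcinoma line, whereas the high KRT8 and KRT18 do not. The identity of the line is taken from the labels, which these markers do not fully bear out, and was not tested. The part of these marker differences in the results below was not tested. In bulk RNA, fewer cells of a kind and less RNA per cell cannot be told apart.

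The promoters of 28 of the 32 genes are in the RefSeq table used here (build GRCh38.p14), as 41 start sites, some of which overlap. The 250 bases upstream of each start are shown for 6 genes, chosen because the results turn on them. SREBF2 encodes the main factor, LSS, NSDHL and INSIG1 were lower in ASO, TM7SF2 was higher, and LBR encodes an enzyme of the same step as TM7SF2 and did not pass the test. Capitals mark the motifs searched on both strands, which were a sterol regulatory element (TCACNCCAC, where N is any base), the E-box CACGTG, the CCAAT box and the GC box GGGCGG, with overlapping matches counted.
SREBF2, chr22:41832855-41833104, plus strand: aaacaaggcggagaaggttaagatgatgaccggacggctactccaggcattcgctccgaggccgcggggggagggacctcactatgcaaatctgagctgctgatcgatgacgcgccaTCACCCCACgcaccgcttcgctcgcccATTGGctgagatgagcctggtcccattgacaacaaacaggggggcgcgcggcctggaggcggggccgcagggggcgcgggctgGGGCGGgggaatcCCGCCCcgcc
LSS, chr21:46228775-46229024, minus strand: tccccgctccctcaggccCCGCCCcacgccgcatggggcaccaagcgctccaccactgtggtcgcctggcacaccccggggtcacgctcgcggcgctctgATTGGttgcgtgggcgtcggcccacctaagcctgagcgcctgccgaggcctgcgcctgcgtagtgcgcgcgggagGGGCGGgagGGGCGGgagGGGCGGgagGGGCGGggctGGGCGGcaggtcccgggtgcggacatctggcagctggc
NSDHL, chrX:152830813-152831062, plus strand: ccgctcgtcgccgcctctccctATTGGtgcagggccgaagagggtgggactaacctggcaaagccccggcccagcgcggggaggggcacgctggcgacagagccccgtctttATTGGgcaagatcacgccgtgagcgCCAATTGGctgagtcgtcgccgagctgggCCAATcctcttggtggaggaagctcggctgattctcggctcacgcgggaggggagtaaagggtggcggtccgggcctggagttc
INSIG1, chr7:155297628-155297877, plus strand: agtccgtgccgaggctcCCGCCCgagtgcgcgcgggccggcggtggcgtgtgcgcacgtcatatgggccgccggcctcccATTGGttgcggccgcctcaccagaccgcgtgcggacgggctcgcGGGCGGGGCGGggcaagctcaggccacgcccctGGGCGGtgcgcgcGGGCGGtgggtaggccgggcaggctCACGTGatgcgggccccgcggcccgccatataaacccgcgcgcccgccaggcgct
TM7SF2, chr11:65111622-65111871, plus strand: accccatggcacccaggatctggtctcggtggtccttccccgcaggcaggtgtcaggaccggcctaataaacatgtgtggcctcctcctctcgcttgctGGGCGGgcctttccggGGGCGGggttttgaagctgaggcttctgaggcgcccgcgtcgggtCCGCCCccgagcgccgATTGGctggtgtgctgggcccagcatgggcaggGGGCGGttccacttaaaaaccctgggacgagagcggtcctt
LBR, chr1:225428822-225429071, minus strand: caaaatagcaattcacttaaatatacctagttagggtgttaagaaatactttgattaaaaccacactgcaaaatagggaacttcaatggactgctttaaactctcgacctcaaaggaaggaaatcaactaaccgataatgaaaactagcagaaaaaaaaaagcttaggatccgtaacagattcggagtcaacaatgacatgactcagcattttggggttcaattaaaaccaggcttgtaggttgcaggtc
The sterol regulatory element was found at 1 of the 41 start sites, that of SREBF2, where it begins 133 bases before the start, against 0.883% of 35116 start sites in the table. CCAAT boxes, which bind NF-Y, were in 24 of the 41 (58.5%, against 32.01% of all start sites). GC boxes, which bind SP1 and related factors, were in 35 of the 41 (85.4%, against 42.6%). The E-box was in 4 of the 41 (9.76%, against 6.34%). Of the 12 genes lower in ASO that have an entry, 8 had a CCAAT box and 11 a GC box, against 20 and 26 of all 28 genes with an entry. TM7SF2 had 1 CCAAT box and 4 GC boxes and LBR had 0 matches to any of the motifs. A match is a description of the letters and does not show a binding site. Likewise, the lack of a match to these fixed strings in 250 bases does not show that a site is absent.

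All 32 genes passed the filter on low counts. Under the quasi-likelihood test of edgeR with Benjamini-Hochberg adjustment over 14062 genes, 46% of all genes tested passed in either direction. Of the 32 genes, 14 (43.8%) were lower in ASO, where 19.1% of all genes tested were lower. Only TM7SF2 (3.12% of the members) was higher, where 26.8% of all genes tested were higher. More genes had a count above 0 in ASO libraries (15452 to 15665) than in NC libraries (13934 to 13995). The shares of all genes given here and below include genes near 0 in NC, whereas the 32 genes had counts in every library. These shares are not matched for level. The other 17 did not pass. The median log2 fold change (ASO minus NC) was -0.31 for the 32 genes and 0.01 for all genes tested, and 28 of the 32 values were below 0. Every ASO library was below every NC library for 18 of the 32 genes, against 25.9% of all genes tested, and only for TM7SF2 was every ASO library above every NC library, against 31.6%. Changes were mostly small. Of the 32 genes, 4 passed and were at least 2-fold lower, against 3.9% of all genes tested. TM7SF2 alone passed and was at least 2-fold higher, against 16.9% of all genes tested. Added up, the 32 genes took 4530.4 to 4868 CPM in ASO and 5342 to 5645 CPM in NC. The count of lower genes among the 32 ranged from 10 to 15 when any 1 library was left out. The share of all genes called lower dropped to 12.1% without NC replicate 1 and 12.4% without ASO replicate 3, with 11 of the 32 genes lower in both cases.

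**Figure D1:**
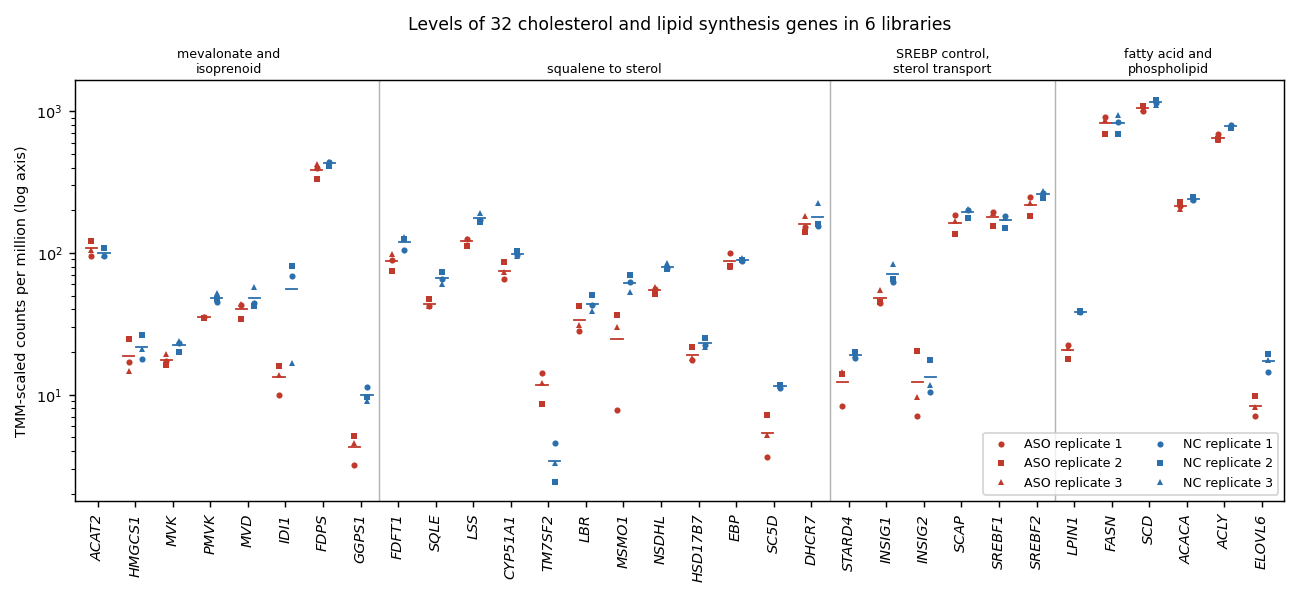
TMM-scaled CPM (log axis) of each of the 32 genes in each library, grouped by step, with red for ASO, blue for NC, a marker shape for each replicate number and a line at each group's mean. TM7SF2 is the only gene with all ASO points above all NC points, and IDI1 in NC replicate 3 (16.6 CPM) and MSMO1 in ASO replicate 1 (7.78 CPM) lie far from their groups.

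Of the 8 genes of the mevalonate and isoprenoid steps, 3 (37.5%) were lower in ASO, against 19.1% of all genes tested. Another 5 did not pass edgeR and 0 were higher. The 3 lower genes were PMVK, IDI1 and GGPS1. IDI1 encodes the isomerase that makes the reactive isoprenoid unit (chromosome 10, 1039152 to 1049119, hg38 as deposited). It had 9.94, 15.99 and 13.8 CPM in ASO, against 68.6, 81.2 and 16.6 CPM in NC. The groups do not overlap, but NC replicate 3 lies close to the ASO libraries and far below the other NC libraries. The log2 fold change was -2.07 ± 0.52 (SE), the lowest of the 32 genes (edgeR adjusted p = 0.0137). Without NC replicate 3 it was -2.51, and the call was lost without ASO replicate 1, ASO replicate 2 or NC replicate 2 (edgeR adjusted p = 0.0629 to 0.0878). It was also lost with limma-voom (adjusted p = 0.0517). Such drops were uncommon: of 8756 genes at 10 CPM or more in both other NC libraries, 16 were under 1/3 of each of them in NC replicate 3.

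GGPS1 makes geranylgeranyl diphosphate, the lipid donor for the prenylation of many small GTPases (chromosome 1, 235327350 to 235344532). Its level was 3.17, 5.10 and 4.56 CPM in ASO, against 11.4, 9.57 and 9.01 CPM in NC. The highest ASO library was well below the lowest NC library, a 2.33-fold fall (edgeR adjusted p = 0.00356). GGPS1 overlaps TBCE on the same strand by 15963 bases in GENCODE release 29, and TBCE was at 29.2 ± 3.69 CPM in ASO and 34.0 ± 5.68 CPM in NC (SD, n = 3 each; edgeR adjusted p = 0.303). PMVK, the kinase that acts on phosphomevalonate (chromosome 1, 154924740 to 154936719), had 35.4, 34.9 and 35.5 CPM in ASO, against 45.1, 47.4 and 51.8 CPM in NC. Its ASO libraries were almost level, and the fall of 1.36-fold passed the test (edgeR adjusted p = 0.00945).

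The other mevalonate genes differed by less. HMGCS1, the hydroxymethylglutaryl-CoA synthase and an early step of the pathway, had 16.9, 24.8 and 14.8 CPM in ASO, against 17.7, 26.2 and 20.9 CPM in NC. The groups overlapped, with replicate 2 highest in each (log2 fold change -0.20 ± 0.23, edgeR adjusted p = 0.507). MVK, mevalonate kinase, was at 17.7 ± 1.59 CPM in ASO and 22.3 ± 2.01 CPM in NC (edgeR adjusted p = 0.0814), and its span overlaps MMAB on the opposite strand by 620 bases. MVD, the decarboxylase that follows PMVK, and FDPS, which makes farnesyl diphosphate, had log2 fold changes of -0.25 and -0.17 (edgeR adjusted p = 0.225 and 0.187). ACAT2, the cytosolic thiolase at the entry to the pathway, was at 108 ± 13.1 CPM in ASO and 101 ± 7.35 CPM in NC (edgeR adjusted p = 0.512). Its span overlaps that of SOD2 by 485 bases and that of TCP1 by 615 bases on the opposite strand. SOD2 was 5.96-fold higher in ASO and TCP1 1.87-fold lower (edgeR adjusted p = 0.000205 and 0.00959), and whether the counting used strand is not given in the sources used here.

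Of the 12 genes from squalene to sterol, 6 (50%) were lower in ASO, against 19.1% of all genes tested. TM7SF2 was higher and 5 did not pass edgeR. The first 3 enzymes of the branch were all lower. FDFT1, the squalene synthase that commits isoprenoids to sterols, had 89.3, 74.7 and 99.1 CPM in ASO, against 106, 126 and 129 CPM in NC. SQLE, the squalene epoxidase and a known control point, had 42.3, 47.4 and 42.0 CPM in ASO, against 65.1, 73.7 and 60.7 CPM in NC. LSS, which closes the rings to lanosterol, had 126, 111 and 125 CPM in ASO, against 172, 164 and 192 CPM in NC. In each of these genes the groups were apart, with falls of 1.37-fold, 1.51-fold and 1.45-fold (edgeR adjusted p = 0.0236, 0.00404 and 0.00315). The FDFT1 call was lost without NC replicate 2 or NC replicate 3 (edgeR adjusted p = 0.0660 and 0.0601).

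CYP51A1, which removes a methyl group from lanosterol, was at 75.0 ± 10.6 CPM in ASO and 98.3 ± 4.32 CPM in NC (SD, n = 3 each). The groups did not overlap (log2 fold change -0.39 ± 0.12, edgeR adjusted p = 0.0289), but the call held in only 1 of the 6 fits with a library left out, the one without ASO replicate 2. Its span overlaps the opposite-strand gene AKAP9 by 25687 bases, and AKAP9 was 3.07-fold lower in ASO (edgeR adjusted p = 0.000857). NSDHL, which removes a carboxyl carbon from the sterol nucleus (chromosome X, 152830967 to 152869729), had 56.1, 50.9 and 57.3 CPM in ASO, against 77.97, 77.3 and 84.7 CPM in NC. The groups were narrow and apart, a fall of 1.46-fold (edgeR adjusted p = 0.00299). SC5D, a desaturase near the end of the pathway (chromosome 11, 121292771 to 121313410), had 3.65, 7.16 and 5.18 CPM in ASO, against 11.2, 11.8 and 11.4 CPM in NC. Every ASO library was clearly below the tight NC group, and the fall was 2.15-fold (edgeR adjusted p = 0.00851).

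MSMO1, the methylsterol monooxygenase, had 7.78, 36.5 and 30.3 CPM in ASO, against 61.9, 69.5 and 52.9 CPM in NC. All ASO libraries were below all NC libraries, but ASO replicate 1 lay far under the other ASO libraries, and the log2 fold change of -1.31 ± 0.47 missed the threshold (edgeR adjusted p = 0.0541). Without that library it was -0.88 and passed (edgeR adjusted p = 0.00598). HSD17B7, which reduces a sterol ketone and has pseudogene copies that could take or give reads, was at 19.2 ± 2.27 CPM in ASO and 23.0 ± 1.76 CPM in NC (edgeR adjusted p = 0.16). EBP, the sterol isomerase, and DHCR7, the reductase of a final step, had log2 fold changes of -0.04 and -0.18 (edgeR adjusted p = 0.798 and 0.406), with overlapping groups. EBP ran from 79.1 to 101 CPM in ASO and from 87.3 to 92.2 CPM in NC, and DHCR7 from 141 to 183 CPM in ASO and from 155 to 225 CPM in NC.

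TM7SF2 and LBR encode sterol reductases that act on the same double bond, and LBR is also a receptor of the inner nuclear membrane that binds lamin B. TM7SF2 (chromosome 11, 65111845 to 65116235) had 14.3, 8.64 and 12.2 CPM in ASO, against 4.55, 2.42 and 3.29 CPM in NC. The lowest ASO library was above the highest NC library, and the rise was 3.42-fold (log2 fold change 1.77 ± 0.29, edgeR adjusted p = 0.00204). It passed with each library left out (edgeR adjusted p = 0.00149 to 0.0113). VPS51, the upstream gene on the same strand, overlaps its first 16 bases in GENCODE release 29 and had 53.6, 40.3 and 43.2 CPM in ASO, against 52.1, 46.4 and 52.2 CPM in NC. The VPS51 groups overlapped (edgeR adjusted p = 0.428).

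LBR (chromosome 1, 225401502 to 225428925) had 28.3, 42.2 and 31.1 CPM in ASO, against 43.0, 50.2 and 38.8 CPM in NC. The groups overlapped, since ASO replicate 2 was above NC replicate 3 (log2 fold change -0.38 ± 0.18, edgeR adjusted p = 0.115). Without ASO replicate 2 LBR was lower in ASO, at -0.57 (edgeR adjusted p = 0.0155). The log2 ratio of TM7SF2 over LBR counts within a library was -0.98, -2.29 and -1.36 in ASO, against -3.24, -4.37 and -3.56 in NC. The groups of ratios were apart, a 4.54-fold shift toward TM7SF2. The exact two-sided permutation test gave p = 0.1, the smallest p that 3 libraries against 3 allow, and 0.15 after adjustment over the 3 pairs compared. These ratios carry no correction for GC content, which was 64.2% for TM7SF2 and 37.8% for LBR. With the GC and length offset described below, the log2 fold changes were 1.41 for TM7SF2 and 0.19 for LBR. The shift was thus smaller with the offset. Per kilobase of the longest annotated transcript, TM7SF2 stood at 5.59 CPM and LBR at 8.89 CPM in ASO, against 1.63 CPM and 11.5 CPM in NC, so LBR remained the higher in level in both groups.

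**Figure D2:**
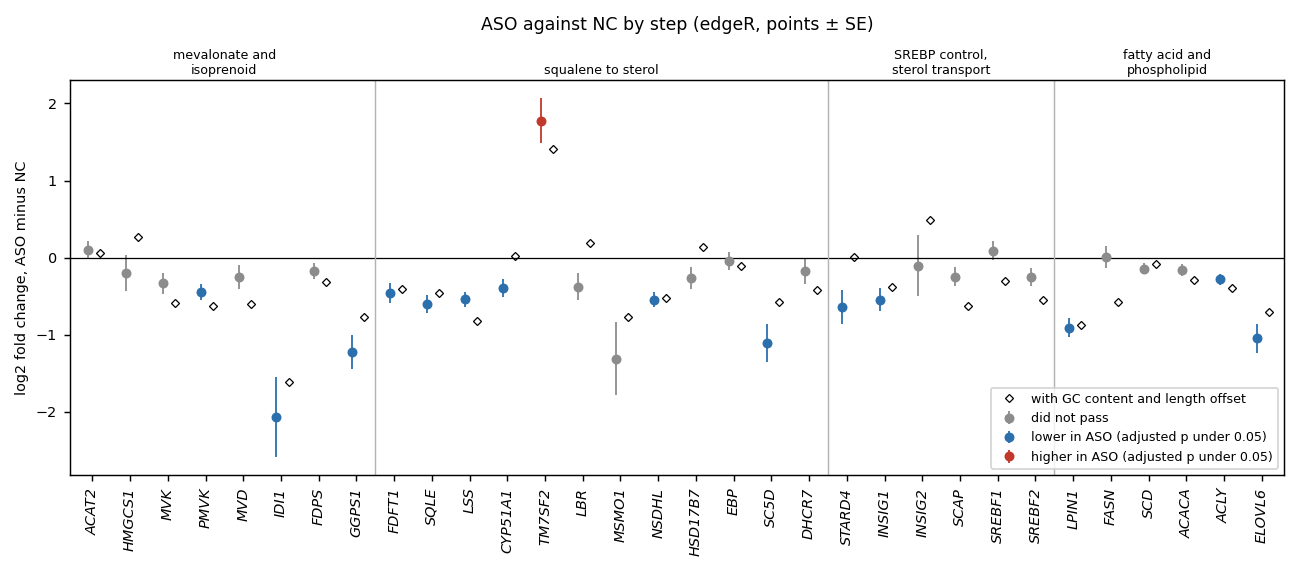
Log2 fold change (ASO minus NC) of the 32 genes by step, as filled points with SE from edgeR, coloured by the call, and as open diamonds from the same test with an offset for GC content and length. IDI1 at -2.07 and TM7SF2 at 1.77 mark the ends of the range, and FASN is near 0 without the offset and at -0.57 with it.

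Of the 6 genes of SREBP control and sterol transport, INSIG1 and STARD4 were lower in ASO, 0 were higher and 4 did not pass edgeR. The lower share is 33.3%, against 19.1% of all genes tested. INSIG1, the feedback gene that retains SCAP (chromosome 7, 155297776 to 155310235), had 44.7, 45.2 and 55.2 CPM in ASO, against 62.1, 65.8 and 84.0 CPM in NC. The groups were apart, a fall of 1.46-fold (edgeR adjusted p = 0.0186), which was lost without ASO replicate 1 or NC replicate 3 (edgeR adjusted p = 0.0549 and 0.05004). INSIG2, its relative, had 7.10, 20.3 and 9.58 CPM in ASO, against 10.5, 17.5 and 11.7 CPM in NC. Replicate 2 was the highest INSIG2 library in both groups, which overlapped (edgeR adjusted p = 0.852). The INSIG1 over INSIG2 log2 ratio averaged 2.11 ± 0.83 in ASO and 2.44 ± 0.48 in NC (SD, n = 3 each, exact permutation p = 0.6), and the difference of -0.33 became 0.15 without ASO replicate 2. STARD4, which carries sterols between membranes, had 8.29, 14.1 and 14.5 CPM in ASO, against 18.2, 20.04 and 19.2 CPM in NC. Its ASO libraries were all lower, but the fall of 1.56-fold was near the threshold (edgeR adjusted p = 0.0461) and was kept in only 1 of the 6 fits with a library left out, the one without ASO replicate 2.

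The genes for the factors themselves did not pass. SREBF1 had 195, 156 and 192 CPM in ASO, against 182, 151 and 176 CPM in NC, and its log2 fold change was 0.09 ± 0.12 (edgeR adjusted p = 0.552). Its span shares 120 bases with RAI1 on the opposite strand, which was higher in ASO (edgeR adjusted p = 0.0313). SREBF2 had 249, 182 and 224 CPM in ASO, against 264, 243 and 273 CPM in NC, and its log2 fold change was -0.25 ± 0.12 (edgeR adjusted p = 0.125). Both pairs of groups overlapped, SREBF2 only through the highest ASO library. The log2 ratio of SREBF1 over SREBF2 within a library was -0.35, -0.22 and -0.22 in ASO, against -0.54, -0.69 and -0.63 in NC. These ratios did not overlap, a 1.28-fold shift toward SREBF1 (exact permutation p = 0.1, adjusted p = 0.15 over the 3 pairs). SCAP, the escort protein gene, was at 164 ± 25.1 CPM in ASO and 194 ± 14.6 CPM in NC (edgeR adjusted p = 0.144).

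**Figure D3:**
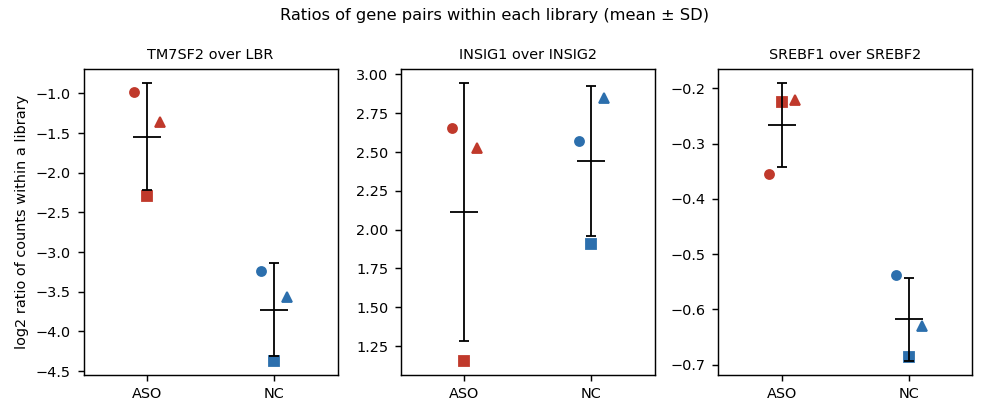
Log2 ratio of the counts of 3 gene pairs within each library, with the marker shape giving the replicate number and black bars the mean ± SD of 3 libraries. The ASO ratios lie above the NC ratios for TM7SF2 over LBR (means -1.54 and -3.72) and SREBF1 over SREBF2 (-0.27 and -0.62), and overlap for INSIG1 over INSIG2.

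SREBF2 and SREBF1 each hold a microRNA gene in an intron, miR-33a and miR-33b, which are known to repress sterol export genes such as ABCA1. Their mature sequences from RefSeq (GRCh38.p14) are given with the seed, bases 2 to 8, in capitals, because the host genes are at the centre of the pathway and the seed is shared.
hsa-miR-33a-5p, chr22:41900949-41900969, plus strand: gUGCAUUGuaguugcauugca
hsa-miR-33b-5p, chr17:17813897-17813916, minus strand: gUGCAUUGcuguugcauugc
The same base stood at 18 of the 20 positions compared. The microRNAs were not analysed here. ABCA1, which exports cholesterol, was low at 2.31, 1.54 and 2.52 CPM in ASO, against 1.17, 1.38 and 2.83 CPM in NC, and the groups overlapped (edgeR adjusted p = 0.651).

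Of the 6 genes of fatty acid and phospholipid synthesis, LPIN1, ACLY and ELOVL6 were lower in ASO, 0 were higher and 3 did not pass edgeR. The lower share is 50%, against 19.1% of all genes tested. LPIN1, a phosphatidate phosphatase that yields diacylglycerol (chromosome 2, 11677595 to 11827409), had 22.3, 17.8 and 21.4 CPM in ASO, against 38.4, 38.9 and 38.1 CPM in NC. The groups were far apart relative to their spread. The fall of 1.87-fold had the smallest p of the 32 genes (edgeR adjusted p = 0.000953). ELOVL6, an elongase of long saturated fatty acids (chromosome 4, 110045846 to 110199199), had 7.06, 9.78 and 8.14 CPM in ASO, against 14.5, 19.4 and 17.7 CPM in NC. The groups were apart, a 2.06-fold fall (edgeR adjusted p = 0.00315). ACLY, which makes cytosolic acetyl-CoA from citrate for both pathways, had 689, 639 and 624 CPM in ASO, against 798, 764 and 804 CPM in NC. The fall of 1.21-fold was the smallest that passed (edgeR adjusted p = 0.0147), and it was lost without ASO replicate 3 or NC replicate 1 (edgeR adjusted p = 0.0690 and 0.0533).

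The genes of the fatty acid synthase itself and of its partners were abundant and close to level. FASN had 915, 693 and 868 CPM in ASO, against 841, 688 and 937 CPM in NC. Replicate 2 was the lowest FASN library in each group, and the log2 fold change was 0.01 ± 0.14 (edgeR adjusted p = 0.976), with its sign depending on scaling (-0.01 with upper-quartile factors or unscaled libraries). SCD, the desaturase that makes oleate, had 1010.2, 1094 and 1040.4 CPM in ASO, against 1149, 1209 and 1115 CPM in NC. ACACA, acetyl-CoA carboxylase, had 213, 228 and 204 CPM in ASO, against 235, 247 and 240.5 CPM in NC. For SCD and ACACA every ASO library was lower than every NC library, but log2 fold changes of -0.14 ± 0.07 and -0.16 ± 0.08 missed the threshold (edgeR adjusted p = 0.128 and 0.127). Per kilobase, SCD (195 and 216 CPM in ASO and NC), FDPS (190 and 214 CPM) and ACLY (149.9 and 182 CPM) had the highest levels of the 32 genes, and TM7SF2 had the lowest in NC.

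Fold changes moved with the base composition of the transcripts. Across the 13921 genes tested that have a GC value, Spearman's rho between GC content and log2 fold change was 0.37, and across the 32 genes it was 0.54. Both are descriptions, since the genes share the same 6 libraries. The 14 lower genes had a median GC content of 46.2% and the 17 that did not pass one of 53.5%, while TM7SF2 was at 64.2%. With an offset that removes each library's trend with GC content and length, 20 of the 32 genes were lower in ASO and 2 higher, against 23.1% lower and 30.3% higher of all genes tested in the same edgeR fit. The median of the 32 genes was then -0.41 and that of all genes 0.06. Of the 14 lower genes, 11 were lower with the offset too, and CYP51A1, STARD4 and INSIG1 were not (edgeR adjusted p = 0.84, 0.954 and 0.0781).

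The 9 genes lower only with the offset were MVK, MVD, FDPS, DHCR7, SCAP, SREBF1, SREBF2, FASN and ACACA, and 8 of them were above 55% GC, ACACA being at 48.7%. SREBF2 had a log2 fold change of -0.55 with the offset, SCAP -0.62, SREBF1 -0.30 and FASN -0.57 (edgeR adjusted p = 0.000201, 6.41e-05, 0.00156 and 3.87e-05). TM7SF2 was higher with it as well, by 2.67-fold (edgeR adjusted p = 0.00124), and LBR turned from a negative value to 0.19 on the log2 scale (edgeR adjusted p = 0.0463).

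**Figure D4:**
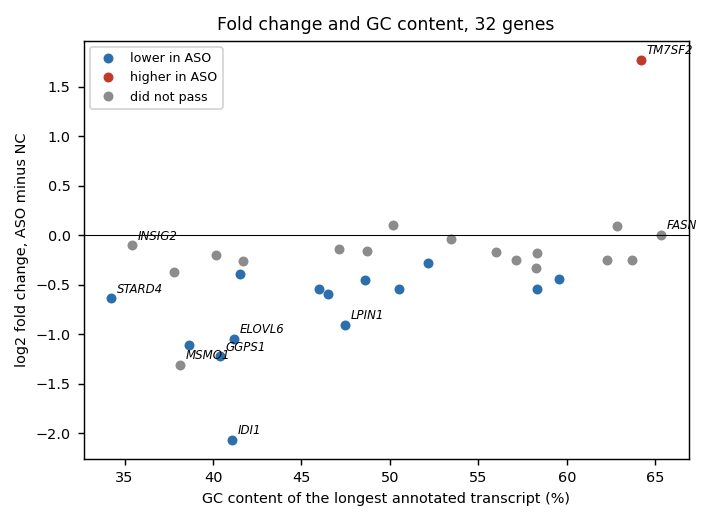
Log2 fold change (ASO minus NC, no offset) of the 32 genes against the GC content of their longest annotated transcript (%), coloured by the edgeR call. The low-GC genes IDI1, GGPS1 and MSMO1 lie at the bottom left, but INSIG2 (35.4% GC) and HMGCS1 (40.2% GC) lie well above them. TM7SF2 (64.2% GC) stands alone at the top right.

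A further 61 genes of SREBP processing, sterol export, isoprenoid use and lipid synthesis, none of them among the 32, were all tested. In edgeR 20 of the 61 (32.8%) were lower in ASO and 4 (6.56%) higher, against 19.1% and 26.8% of all genes tested, with a median log2 fold change of -0.21. With the GC and length offset these counts were 18 and 7, against 23.1% and 30.3% of all genes tested. Of the 9 genes listed for SREBP processing and degradation, 2 (22.2%) were lower and 0 higher. Of the 10 listed for isoprenoid use, 2 (20%) were lower and 0 higher. Both lower shares are near the 19.1% of all genes tested. Of the proteases that free SREBPs in the Golgi, MBTPS1 had 45.7, 38.8 and 42.6 CPM in ASO, against 59.9, 62.1 and 63.1 CPM in NC. The groups were apart (edgeR adjusted p = 0.0042), while MBTPS2 was at 28.03 ± 5.00 CPM in ASO and 35.9 ± 2.67 CPM in NC (edgeR adjusted p = 0.0871). NFYB, a subunit of the CCAAT-binding factor NF-Y, was 2.39-fold lower in ASO (edgeR adjusted p = 0.0124), at 5.61 ± 2.54 CPM in ASO against 13.4 ± 1.96 CPM in NC. It was the 1 of 4 genes listed for NF-Y and SP1 that passed (25%, against 19.1% lower of all genes tested). NFYA, NFYC and SP1 had log2 fold changes of -0.06, 0.24 and -0.18 (edgeR adjusted p = 0.72, 0.154 and 0.335). Of the 7 genes listed as other sterol genes, 5 were lower (71.4%, against 19.1% of all genes tested), named after their values were seen. TMEM97, ERG28, POR and RDH11 had log2 fold changes of -0.36 to -0.50. ACAT1, at -0.76, encodes a mitochondrial thiolase and not an enzyme of sterol synthesis.

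DGAT2, which makes triglyceride from diacylglycerol, had 0.615, 1.06 and 0.860 CPM in ASO, against 4.30, 3.25 and 4.87 CPM in NC. It was low in both groups, which did not overlap, and fell 4.9-fold (edgeR adjusted p = 0.000875). ME1, the malic enzyme that supplies NADPH for fatty acid synthesis, was at 18.2 ± 5.64 CPM in ASO and 36.8 ± 2.60 CPM in NC, 2.03-fold lower (edgeR adjusted p = 0.00669). ABCG1, a sterol exporter, was at 2.77 ± 0.33 CPM in ASO and 1.35 ± 0.42 CPM in NC, 2.05-fold higher (edgeR adjusted p = 0.0295). The other higher genes, chosen for naming with their values known, were the lysosomal cholesterol transporter gene NPC1, PNPLA3 and the lipid droplet coat gene PLIN2, at 1.39-fold, 1.59-fold and 1.65-fold. The liver X receptor genes NR1H2 and NR1H3, sensors of oxysterols, did not pass (edgeR adjusted p = 0.101 and 0.62), nor did MYLIP, one of their targets (edgeR adjusted p = 0.305). Of the 9 genes listed for these receptors, sterol export and storage, 2 were higher (ABCG1 and NPC1) and 2 lower. Each share is 22.2%, near the 26.8% higher and 19.1% lower of all genes tested. The lower ones, also named with their values known, were LPCAT3, another target of the receptors, and SOAT1, which esterifies cholesterol, at 1.71-fold and 1.93-fold (edgeR adjusted p = 0.000834 and 0.0135).

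**Figure D5:**
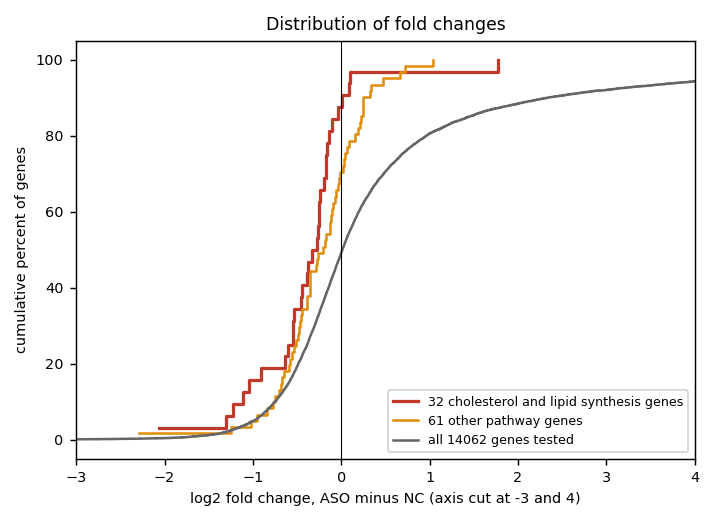
Cumulative percent of genes against log2 fold change (ASO minus NC) for the 32 genes, 61 other genes of the pathways and all 14062 genes tested. The curve of the 32 genes crosses 50% at -0.31 and that of all genes at 0.01, and only TM7SF2 extends the curve of the 32 genes far to the right of 0.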

How the data were processed

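Deposited values were estimated counts per gene symbol for 6 libraries, not scaled to depth and whole numbers as deposited, so rounding changed nothing. Per the submitters' processing notes, the tools named are FastQC, STAR, StringTie and DESeq2, with build hg38. Their roles and versions, the annotation and the strand setting were not given in the sources used here. The most frequent count above 0 was 4 in every library, so 1 fragment may be worth about 4 counts and the depth in fragments may be lower than the totals. Gene starts and ends are as deposited.

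Counts were filtered with filterByExpr (minimum count 10, minimum total 15), scaled by TMM and tested with the robust quasi-likelihood test of edgeR 4.0.16 in R 4.3.3, without a replicate block, with Benjamini-Hochberg adjustment over all genes and a threshold of 0.05. SE is the log2 fold change over the square root of F. CPM values are mean ± SD. Pairs of genes were compared by exact permutation in scipy 1.17.1. GC content and length came from the longest GENCODE release 29 transcript, and 97.8% of genes had a value. The offset used splines with 5 degrees of freedom on log2 CPM (prior count 2) in each library. Alternatives included DESeq2 1.42.0 and limma-voom 3.58.1. The fits were also run on simulated counts with far fewer changed genes than passed in these data, and no result here rests on those runs.

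The members, lists and steps were chosen with earlier results of these data known. All 32 members are named. Of the other 61 genes, those that passed with at least 2-fold change and 1 CPM are named, with MBTPS1, MBTPS2, NR1H2, NR1H3, ABCA1 and MYLIP. Markers fixed for naming were EPCAM, CDH1, KRT8, KRT18, VIM and COL5A1. Other genes of these lists that the text names were added with their values known, to account for the counts of their groups. Overlapping genes were chosen by annotation. Other genes of these pathways were not analysed here.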

Additional observations from a re-analysis of the deposited data

How the results depend on the processing

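Over 17 alternatives, 8 of the 14 lower genes (PMVK, GGPS1, SQLE, LSS, NSDHL, SC5D, LPIN1 and ELOVL6) and TM7SF2 kept their call in all. Of 544 gene-by-alternative values for the 32 genes, 467 kept direction and call and 29 changed sign, whatever their call. Of the values that kept their sign, 24 lost the call and 24 gained it. The replicate block gave 18 lower genes and 1 higher, with IDI1 lost (edgeR adjusted p = 0.103, and 0.141 with the offset too) and LBR lower (-0.39, adjusted p = 0.0219). Numbers pair the libraries weakly (deviations correlate at 0.0764, 0.30 and 0.0439 for replicates 1, 2 and 3), and only replicate 2 correlates best with its own number. With the GC and length offset alone and with the replicate block, 2 and 2 of the 32 were higher (main 1), TM7SF2 in both, with LBR in the offset alone and INSIG2 (adjusted p = 0.0406) in its place with the block, and 7 and 8 of the 61 others (main 4). Leaving out 1 library gave 1755 to 3199 lower genes in all (main 2692). Pair differences ran from 1.86 to 2.55 for TM7SF2 over LBR, from -0.60 to 0.15 for INSIG1 over INSIG2 and from 0.32 to 0.40 for SREBF1 over SREBF2. The alternatives for the pairs did not include the GC and length offset. Log2 fold changes that reversed with the offset, without and with the replicate block, were 0.27 and 0.27 for HMGCS1, 0.0159 and 0.0166 for CYP51A1, 0.19 and 0.19 for LBR, 0.14 and 0.14 for HSD17B7, 0.0136 and 0.0017 for STARD4, 0.48 and 0.45 for INSIG2, -0.30 and -0.30 for SREBF1, -0.57 and -0.57 for FASN, 0.27 and 0.27 for MBTPS2, -0.0397 and -0.0383 for NR1H2, -0.0931 and -0.0934 for the keratin gene KRT18, 0.37 and 0.37 for ARID4B (which overlaps GGPS1), -0.0797 and -0.0798 for RAI1, and 0.15 and 0.15 for TBCE. By construction the offset removes a trend that differs between the groups. FASN was -0.0143 with upper-quartile scaling, -0.0120 unscaled and -0.0010 with no filter. When 1 library was left out, the sign also changed for ACAT2 (-0.0030 to 0.17), EBP (-0.16 to 0.0222, with 0.0030 without ASO replicate 2), DHCR7 (-0.29 to 0.0014), INSIG2 (-0.67 to 0.17), FASN (-0.10 to 0.12), KRT18 (-0.0146 to 0.13) and ARID4B (-0.25 to 0.0709). The cause of these changes was not tested. Low counts limit genes under 5 CPM in a group, such as ABCA1, ABCG1, DGAT2, GGPS1 and TM7SF2.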
